A study of Mus musculus with 1087 samples.

Results

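The cells described here were 67 of the 1087 single cells of a mouse embryo series: 31 cells from embryonic day 11 (E11) and 36 cells from embryonic day 10 (E10). They were chosen by the submitters' labels alone, as cells of the G2VInt gate that the authors had placed in class HC1 and in cluster 8 of a clustering made without CD27+ cells. The series sequenced messenger RNA of Kit-high cells of the AGM (aorta, gonads and mesonephros), dissected with the trunk part of the vitelline and umbilical arteries and dissociated with collagenase. Cells were stained for CD31, cKit and CD27 and sorted alive on these proteins and on a Venus reporter of Gata2, and G2VInt is the intermediate Venus gate. All embryos at both days had the genotype Gata2 V/+, with 1 Venus-linked and 1 normal Gata2 allele, and came from C57BL/6HsdJOla wild-type females mated with Gata2 V/V males. No label ties a cell to an embryo, a litter or a sort. Each day is therefore 1 sample, its cells are not replicates, and no difference between the days was tested.

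The AGM is where hematopoietic stem cells (HSCs) form in the mid-gestation mouse embryo. Specialised endothelial cells of the aortic wall, the hemogenic endothelium, switch on blood genes, round up and join small clusters attached to the vessel lining, losing endothelial genes as they take on blood identity. Transcription factors such as Runx1, Gata2 and Gfi1 carry this switch, Notch and BMP signals and inflammatory cytokines act on it, and factors such as Mecom, Mllt3 and Hlf are known from HSC maintenance. In mouse, transplantable HSCs are rare or absent in the AGM at E10 and are found there at E11.

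Levels are given as CPM, a gene's reads scaled to a fixed total number of reads, after the reads of all cells of a day were summed, which weights cells by their reads. The E11 cells had a median of 2498035 reads (range 545218 to 6999570) and the E10 cells 1949030 (586505 to 3326396). After each cell had been thinned at random to 500000 reads, the median number of genes read was 9666 in E11 cells and 9919 in E10 cells. The median mitochondrial share of a cell's reads was 2.54% at E11 and 2.05% at E10. The ranges of library numbers in the sample titles did not overlap between E11 and E10, so that library block, embryos and day cannot be told apart. More reads of Y-linked genes than of Xist were found in 22 of 31 E11 cells and 11 of 36 E10 cells, so the mix of male and female embryos also moved with day. At least 1 read of a Y-linked gene was found in 29 E11 cells and 18 E10 cells. Some cells on each day thus held more Xist reads but also Y-linked ones, and the source of these was not tested. In the authors' clustering of all cells, 24 of the E11 cells were again in cluster 8 and 7 were in cluster 7, while 35 of the E10 cells were in cluster 8 and 1 was in cluster 10. Values without the 8 cells outside cluster 8 are given beside the results that they change most. Intervals on shares of cells cover the counting of cells within a day, and do not bear on the difference between the days.

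The class name HC1 is not spelled out in the labels, and its reading as hematopoietic was checked on marker genes. The 22 pan-hematopoietic markers summed to 6077 CPM in the E11 cells and 5619 CPM in the E10 cells, against 718 and 705 CPM in the EC class of E11 and E10. Pan-endothelial markers summed to 3583 CPM in the E11 cells and 1906 CPM in the E10 cells, against 18146 and 16329 CPM in EC of these days. Hematopoietic markers were thus high and endothelial ones well below EC, and venous markers were low (54.2 CPM at E11, 41.4 CPM at E10, against 4389 and 3578 CPM in EC). In the HC2 class, pan-hematopoietic markers summed to 8798 CPM at E11 and 7312 CPM at E10, and pan-endothelial ones to 651 and 749 CPM. Beside HC2, the cluster 8 cells thus had lower hematopoietic and higher endothelial sums on both days. Among markers of other cell types, germ cell markers summed to 6.601 CPM at E11 and 6.33 CPM at E10, neural ones to 16.3 and 8.74 CPM, and mesenchymal ones to 118.3 and 63.4 CPM. The mesenchymal sum was carried largely by Acta2, the smooth muscle actin gene, which had 81.9 CPM at E11 and 32.4 CPM at E10, with a log2 ratio of 1.34 that was 0.68 without the highest cell. The part of such cells in the results below was not tested.

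A measured gene had 10 CPM or more on at least 1 of the days. It also had reads in 10% or more of the thinned cells of at least 1 day, not always the same day. Of 9922 genes measured, 599 were at least 2-fold higher at E11 (6.04%) and 2.13% were at least 2-fold lower. The median log2 ratio of E11 over E10 over all measured genes was 0.01. Over the 24 E11 and 35 E10 cells inside cluster 8, 555 genes were at least 2-fold higher (5.59%) and 2.57% at least 2-fold lower. Each gene list below is set against these shares and this median, which show no more than how the list compares with all genes. Lists and members were chosen with earlier results of these data known, so the comparison is descriptive and not independent of the data.

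Of the genes of the stained proteins and the reporter, Kit and Gata2 were close between the days, and Pecam1 and Cd27 were higher at E11. The titles of these cells name high Kit and the Venus gate, but no gate on CD27 or CD31. Kit, the stem cell factor receptor on which the cells were sorted, had 639 CPM at E11 (95% interval 634 to 645) and 623 CPM at E10 (617 to 629). Gata2, the factor whose reporter set the gate, had 123.2 CPM at E11 and 102.3 CPM at E10. Pecam1, which encodes CD31, had 286.3 CPM at E11 and 186.2 CPM at E10, a log2 ratio of 0.62 that was 0.31 without the 8 cells outside cluster 8. Cd27, a TNF receptor family member present on HSCs, was 2.19-fold higher at E11, with 122.6 CPM (120 to 124.98) against 55.9 CPM (54.2 to 57.6) at E10. Its per-cell CPM ran from 0 over a median of 73.01 to 670 at E11 and from 0 over 25.6 to 327.3 at E10. The days thus overlapped broadly, with 23 of 31 E11 cells above the E10 median, and the log2 ratio of 1.13 was 0.81 without the highest cell. These intervals are exact Poisson intervals on the summed reads and cover the counting of reads only, not of RNA molecules. For the named genes at 10 CPM or more they reached at most 6.91% from the value at E11 and 7.44% at E10, far less than the spread between cells.

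Transcription factors of HSCs were higher at E11 as a group. Of 24 factors listed, 23 were measured, 7 of these were at least 2-fold higher and 0 at least 2-fold lower, and their median log2 ratio was 0.63. Their summed level per cell had a lowest value of 1409, a median of 3095 and a highest value of 5590 CPM at E11, against 1173, 2069 and 3700 CPM at E10. Of the 31 E11 cells, 30 lay above the E10 median and 5 above the highest E10 cell. These 5 were 4 of the 7 cells in cluster 7 of the clustering of all cells and 1 of the other 24. When the 8 cells outside cluster 8 were left out, the median log2 ratio was 0.46, with 7 genes at least 2-fold higher.

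Mecom, at chr3:29951296-30548008 on the minus strand (GRCm38), encodes EVI1 and PRDM3, which HSCs need for self-renewal. Per-cell CPM ran from 9.59 over a median of 144.2 to 702 at E11, and from 0 over 35.8 to 248.5 at E10. Summed, Mecom had 186.4 CPM at E11 (183.6 to 189.4) and 50.9 CPM at E10 (49.3 to 52.6), a log2 ratio of 1.87. Nearly every E11 cell was above the middle of the E10 cells, with 29 of 31 above the E10 median, and after thinning a read was found in 100% of E11 cells and in 80.6% of E10 cells (63.98 to 91.8).

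Mllt3, at chr4:87769925-88033364 on the minus strand, encodes AF9, a reader of acylated histones that sustains HSCs in culture in human cells. It ran from 0 over a median of 77.1 to 390 CPM per cell at E11 and from 0 over 20.3 to 60.7 CPM at E10. In all, 17 of 31 E11 cells exceeded the highest E10 cell. The summed levels were 90.9 CPM at E11 (88.9 to 92.98) and 24.96 CPM at E10 (23.8 to 26.1), a log2 ratio of 1.87. Without the 8 cells outside cluster 8 the log2 ratios of Mecom and Mllt3 were 1.59 and 1.52.

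Other factors at 2-fold or more included Egr1, Hoxa10, Prdm16 and Nkx2-3. Hoxa10 had 44.8 CPM at E11 and 14.9 CPM at E10, and Prdm16, a relative of Mecom that also maintains HSCs, had 35.96 and 12.8 CPM. Egr1, an immediate-early gene linked to HSC quiescence, had 85.1 CPM at E11 and 27.8 CPM at E10, but its per-cell medians were low on both days (1.57 CPM at E11, 1.10 CPM at E10) and 31.3% of its E11 reads came from 1 cell. With E11 cells of the lower library numbers alone its log2 ratio was 0.70. Hlf, an HSC marker in the embryo, had 100 CPM at E11 and 54.4 CPM at E10, a log2 ratio of 0.88. Hmga2, a chromatin factor of fetal HSCs, lay on the other side, with 243.8 CPM at E11 and 304.4 CPM at E10.

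The factors that start the endothelial-to-hematopoietic switch differed less. Of 21 listed, 19 were measured, 2 were at least 2-fold higher (Sox17 and Gfi1) and 0 at least 2-fold lower, with a median log2 ratio of 0.15. Runx1, the factor the switch depends on, had 306.7 CPM at E11 and 318.7 CPM at E10. Spi1, which encodes PU.1, had 375.3 CPM at E11 and 367.4 CPM at E10. Gfi1, a repressor of endothelial genes downstream of Runx1, had 39.2 CPM at E11 and 14.6 CPM at E10 (log2 ratio 1.42, or 0.84 against E10 cells of the lower library numbers), while its relative Gfi1b had 112.9 and 138.8 CPM.

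**Figure D1:**
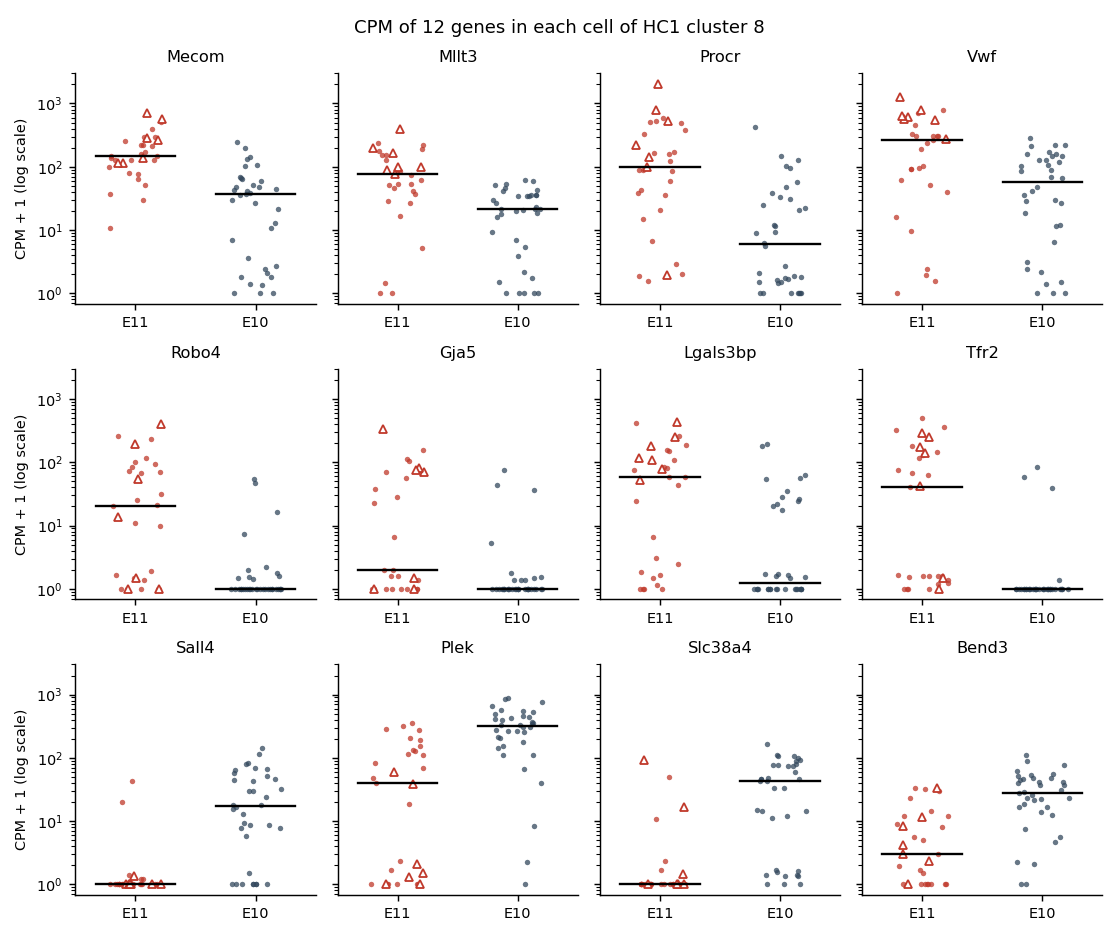
CPM + 1 on a log axis in each cell for 12 genes, E11 (31 cells) left of E10 (36 cells). Circles are cells, open triangles are the 7 E11 cells in cluster 7 of the clustering of all cells, and black bars are medians over all cells of the day. Mecom, Mllt3, Procr and Vwf have higher medians at E11 (144.2, 77.1, 98.1 and 261.7 CPM) than at E10 (35.8, 20.3, 4.96 and 56.1 CPM), and Sall4, Plek, Slc38a4 and Bend3 lower ones.

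Genes of surface proteins used to isolate HSCs were mostly higher at E11, with exceptions. The summed level of the list was close between the days, with per-cell medians of 5769 CPM at E11 and 5118 CPM at E10. Of the 31 E11 cells, 21 lay above the E10 median. Of 26 listed, 19 were measured, with 6 at least 2-fold higher at E11, 0 at least 2-fold lower and a median log2 ratio of 0.66. Procr (EPCR, chr2:155751117-155755471, plus strand), the protein C receptor found on HSCs and on arterial endothelium, was one of the 6. Per cell it ran from 0.581 over a median of 98.1 to 2053 CPM at E11 and from 0 over 4.96 to 425.6 CPM at E10. Its summed level was 250 CPM at E11 (246.9 to 253.7) and 30.9 CPM at E10 (29.7 to 32.2), a log2 ratio of 3.02, and it was 2.34 without the 8 cells outside cluster 8. A read was found in 87.1% of thinned E11 cells (70.2 to 96.4) and 63.9% of E10 cells (46.2 to 79.2).

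Ly6a, which encodes the HSC antigen SCA-1, was low on both days, with 13.3 CPM at E11 and 1.22 CPM at E10. It was read in 32.3% of thinned E11 cells (16.7 to 51.4) and 8.33% of E10 cells (1.75 to 22.5). Cd82, a tetraspanin of quiescent HSCs, had 27.3 CPM at E11 and 4.60 CPM at E10. Il6st, which encodes the gp130 subunit shared by receptors of the IL-6 family, had 62.6 CPM at E11 and 17.2 CPM at E10, with 26 of 31 E11 cells above the E10 median. By contrast Itga2b (CD41) and Itgb3, both subunits of the platelet integrin that marks the start of embryonic blood formation, had 135.8 and 134.5 CPM at E11 and 214.9 and 241.04 CPM at E10. Flt3 had 48.6 CPM at E11 and 60.8 CPM at E10.

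Pan-endothelial genes were higher at E11 in most of the list. Of 22 listed, 21 were measured, 12 were at least 2-fold higher and 1 at least 2-fold lower, and the median log2 ratio was 1.02. The summed level per cell was 654 at the lowest, 3110 at the median and 9457 CPM at the highest at E11, against 586.5, 1633 and 3752 CPM at E10. Of the E11 cells, 28 lay above the E10 median and 12 above the highest E10 cell. These 12 were 6 of the 7 cells in cluster 7 of the clustering of all cells and 6 of the other 24. Over the 24 E11 and 35 E10 cells inside cluster 8, the median log2 ratio was 0.76, with 4 genes at least 2-fold higher and 2 at least 2-fold lower.

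Robo4 (chr9:37401897-37415115, plus strand), an endothelial guidance receptor that is also an HSC surface marker, ran from 0 over 19.6 to 404.9 CPM per cell at E11 and from 0 over 0 to 53.6 CPM at E10. Its summed level was 55.8 CPM at E11 (54.3 to 57.4) and 3.69 CPM at E10 (3.26 to 4.16), a log2 ratio of 3.92. The gene was read in 64.5% of thinned E11 cells (45.4 to 80.8) and 16.7% of E10 cells (6.37 to 32.8). Its log2 ratio was 3.58 without the 8 cells outside cluster 8. Clec14a, an endothelial lectin, had 49.9 CPM at E11 and 5.66 CPM at E10, and Cldn5, a tight junction protein, had 73.2 and 13.4 CPM. Eng, a TGF-beta co-receptor of endothelium and HSCs, had 526 CPM at E11 and 260 CPM at E10 and was read in all cells of both days.

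Sox7, an endothelial SOX factor, had 37.7 CPM at E11 and 5.81 CPM at E10, a log2 ratio of 2.70. In the 24 E11 cells of cluster 8 in the clustering of all cells it had 9.31 CPM and in the other 7 it had 174.998 CPM, and the log2 ratio without the 8 cells outside cluster 8 was 0.65. Vwf, the von Willebrand factor gene expressed in endothelium, megakaryocytes and part of the HSCs, ran from 0 over 261.7 to 1256 CPM per cell at E11 and from 0 over 56.1 to 285.1 CPM at E10, and 14 E11 cells exceeded the highest E10 cell. Kdr, the VEGF receptor gene that defines early vascular precursors, had 57.04 CPM at E11 and 76.3 CPM at E10. Ednrb, the endothelin receptor B gene, was the member at least 2-fold lower, with 1.304 CPM at E11 and 11.8 CPM at E10.

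Arterial endothelial genes were higher at E11, and the size of their median rested in part on the 7 cells. Of 18 listed, 13 were measured, 8 were at least 2-fold higher at E11 and 0 at least 2-fold lower, and the median log2 ratio was 1.40. When the 8 cells outside cluster 8 were left out, it was 0.50, with 5 genes at least 2-fold higher. The summed level was 1016 CPM in the 7 E11 cells of cluster 7 and 314.3 CPM in the other 24 E11 cells, against 166.6 CPM over all E10 cells. Per cell it ran from 85.9 over a median of 404.1 to 1818 CPM at E11 and from 3.29 over 131.7 to 495 CPM at E10.

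Dll4, a Notch ligand of arterial and hemogenic endothelium, had 22.2 CPM at E11 and 2.39 CPM at E10. In the 24 E11 cells of cluster 8 in the clustering of all cells it had 2.25 CPM, so that the log2 ratio of 3.22 became -0.11 without the 8 cells. Sox17, which directs arterial and hemogenic fate, had 10.3 CPM at E11 and 1.13 CPM at E10, but 65.3% of its E11 reads came from 1 cell, and its log2 ratio of 3.20 was 1.27 without the 8 cells. Gja5, which encodes the arterial gap junction protein connexin 40, kept a log2 ratio of 2.46 without the 8 cells, against 3.05 with them, and had 41.3 CPM at E11 and 4.99 CPM at E10. Bmx, an arterial kinase gene on the X chromosome, had 12.9 CPM at E11 and 1.67 CPM at E10, and Hey1, a Notch target, had 10.4 and 1.41 CPM. Without the 8 cells the log2 ratio of Bmx was 1.52, against 2.96 with them, and that of Hey1 was 2.23, against 2.88. Some genes, among them Mecom, Dll4 and Sox17, are members of several lists, which therefore overlap.

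Of the 20 listed genes of the Notch pathway, 11 were measured, with 3 at least 2-fold higher, 0 at least 2-fold lower and a median log2 ratio of 0.28. Without the 8 cells outside cluster 8, 1 member was at least 2-fold higher and the median was 0.30. The receptors differed in direction. Notch1 had 41.2 CPM at E11 and 26.8 CPM at E10, Notch4 had 14.96 and 7.72 CPM, and Notch2 had 12.4 and 19.2 CPM. Hes1, a target shared by many cell types, had 25.9 CPM at E11 and 12.6 CPM at E10, and its log2 ratio of 1.04 was 0.59 without the highest cell. Among 21 genes of BMP and TGF-beta signaling, 14 were measured, 3 were at least 2-fold higher (Skil, Bmpr2 and Eng) and 1 at least 2-fold lower (Id1), with a median log2 ratio of 0.07. Over the 24 E11 and 35 E10 cells inside cluster 8, 2 were at least 2-fold higher and the median was -0.04. The log2 ratio of Bmpr2, a BMP receptor, was 1.25 over all cells and 0.58 against E10 cells of the lower library numbers. Skil, a repressor of SMAD signaling, had 80.7 CPM at E11 and 26.2 CPM at E10. Id1, a direct BMP target, had 23.6 CPM at E11 and 48.8 CPM at E10. Its log2 ratio of -1.05 was -0.64 without the highest cell and 0.01 against E10 cells of the upper library numbers.

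**Figure D2:**
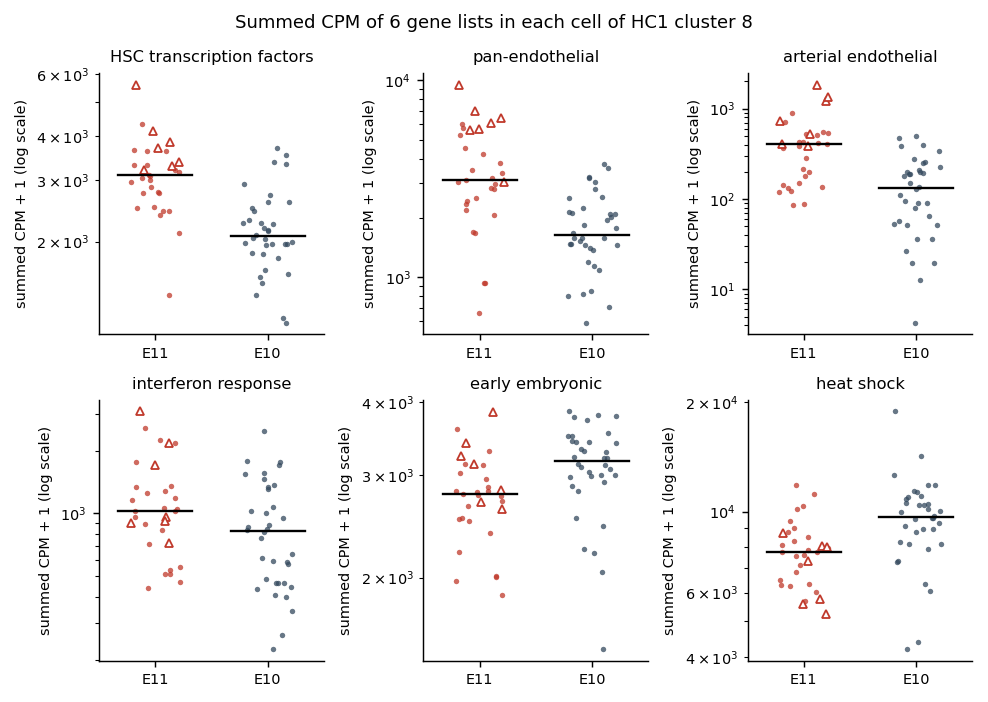
Summed CPM + 1 of 6 gene lists in each cell on log axes, E11 left of E10, with symbols as for the single genes (open triangles are the 7 E11 cells in cluster 7 of the clustering of all cells). Median summed levels are higher at E11 for HSC transcription factors (3095 against 2069 CPM), pan-endothelial (3110 against 1633 CPM), arterial (404.1 against 131.7 CPM) and interferon response genes (1026 against 821 CPM), and lower for early embryonic (2784 against 3170 CPM) and heat shock genes (7732 against 9661 CPM).

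The 15 highest ratios at E11, taken among genes that kept at least a 1.5-fold ratio under each of several ways of reducing the data, held few textbook HSC genes beside Procr and Robo4. Tfr2, the transferrin receptor 2 gene (chr5:137569840-137587481, plus strand), known from iron sensing in liver and red cell precursors, ran from 0 over 39.003 to 492 CPM per cell at E11 and from 0 over 0 to 83.99 CPM at E10. Its summed level was 98.5 CPM at E11 (96.4 to 100.7) and 6.13 CPM at E10 (5.58 to 6.72), a log2 ratio of 4.01. It was read in 61.3% of thinned E11 cells (42.2 to 78.2) and 8.33% of E10 cells (1.75 to 22.5), which is 19 and 3 cells. Trpc6, a calcium-permeable channel, was read in 80.6% of E11 cells (62.5 to 92.5) and 27.8% of E10 cells (14.2 to 45.2), with 49.1 CPM at E11 and 7.92 CPM at E10.

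Prex2, an exchange factor for the GTPase RAC, had 26.8 CPM at E11 and 1.26 CPM at E10. Fblim1, which links filamin to cell-matrix adhesions, had the highest ratio of the 15, a log2 of 5.90, with 20.3 CPM at E11 and 0.339 CPM at E10. Its per-cell median was close to 0 on both days (0.378 CPM at E11), and 11 of 31 E11 cells exceeded the highest E10 cell. Tnip3, an inhibitor of NF-kappa-B signaling, had 22.6 CPM at E11 and 0.570 CPM at E10, with 51.2% of the E11 reads in 1 cell. S100a16, a calcium-binding protein gene, had 55.9 CPM at E11 and 8.04 CPM at E10. Zcwpw1, a reader of histone methylation known from meiosis, had 20.6 CPM at E11 and 2.71 CPM at E10, and 14 of 31 E11 cells exceeded the highest E10 cell. Chad, Isl1 and Cables1 completed the 15, with 34.4, 21.3 and 25.1 CPM at E11 and 5.05, 3.43 and 3.46 CPM at E10.

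Genes of the interferon response were higher at E11 in most measured members, with a smaller median among the more abundant ones. Of 26 listed, 15 were measured, 8 were at least 2-fold higher and 1 at least 2-fold lower, and the median log2 ratio was 1.12. Among members of at least 50 CPM it was 0.18, and over all measured members without the 8 cells outside cluster 8 it was 0.82. The 8 were Oasl2, Ddx58, Lgals3bp, Oas1a, Irf9, Ifih1, Ifit2 and Irf1. Lgals3bp, a secreted glycoprotein induced by interferon, ran from 0 over 58.4 to 430.7 CPM per cell at E11 and from 0 over 0.234 to 193.5 CPM at E10, and its summed level was 79.2 CPM at E11 and 22.5 CPM at E10. Irf9, the DNA-binding part of the factor ISGF3 that answers type I interferon, had 51.7 CPM at E11 and 16.5 CPM at E10. Stat2, another part of ISGF3, had 21.5 CPM at E11 and 16.3 CPM at E10. Ddx58 and Ifih1, which encode the RNA sensors RIG-I and MDA5, had 13.7 and 25.2 CPM at E11 and 2.33 and 9.64 CPM at E10.

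Some classical interferon targets were near or at 0: Ifit1, Ifit3 and Mx1 had no read on either day, and Isg15 had 0.822 CPM at E11 and 0.0136 CPM at E10. Members of the Ifitm family, whose similar copies may share reads, were close between the days. Ifitm3 had 196.7 CPM at E11 and 181.7 CPM at E10, Ifitm2 had 274.1 and 276.97 CPM, and Ifitm1 had 218.9 and 237.3 CPM. Usp18, which shuts off interferon receptor signaling, was the member at least 2-fold lower, with 4.05 CPM at E11 and 10.4 CPM at E10.

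ISGF3 binds an element whose core is a repeated GAAA, so promoters of the measured members were searched for GAAA followed by any 2 bases and GAAA again, on both strands, from 250 bases before to 50 bases after each RefSeq start (GRCm38.p6). The motif was present in 3.44% of all 32851 promoters and, counted by gene over any of its promoters, in 3.99% of 27025 genes. Counted by gene, it was present in 3 of 8 members at least 2-fold higher at E11 and in 4 of the 5 other measured members with a promoter in the table. A match describes the letters only and is not evidence of binding. Matches are shown for 1 member that was at least 2-fold higher (Oas1a, log2 ratio 1.79) and for 2 that were not (Stat2, 0.40, and Bst2, 0.18). The capitals mark the motif on either strand, in Oas1a and Bst2 as 2 overlapping matches, and the stretches lie at chr5:120907526-120907575 on the minus strand, chr10:128270248-128270315 on the plus strand and chr8:71537557-71537632 on the minus strand.
Oas1a: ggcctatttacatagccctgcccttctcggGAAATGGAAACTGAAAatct
Stat2: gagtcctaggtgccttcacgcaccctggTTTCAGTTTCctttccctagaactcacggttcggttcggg
Bst2: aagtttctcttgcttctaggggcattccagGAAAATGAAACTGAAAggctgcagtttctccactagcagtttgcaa

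Antigen presentation genes were mostly higher at E11. Of 18 listed, 9 were measured, 2 were at least 2-fold higher at E11 and 0 at least 2-fold lower, with a median log2 ratio of 0.50. Both were subunits of the immunoproteasome, the form of the proteasome that cuts peptides for MHC class I. Psmb8 had 19.7 CPM at E11 and 3.35 CPM at E10 and was read in 77.4% of thinned E11 cells (58.9 to 90.4) and 27.8% of E10 cells (14.2 to 45.2). Psmb9 had 10.1 CPM at E11 and 3.58 CPM at E10, and its log2 ratio of 1.498 was 0.72 against E10 cells of the upper library numbers. B2m, the light chain of MHC class I, had 369.4 CPM at E11 and 267.7 CPM at E10. The summed level of the list exceeded the highest E10 cell (1116 CPM) in 11 of the 31 E11 cells, 9 of them among the 24 in cluster 8 of the clustering of all cells.

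Among genes of early embryonic cells and fetal growth, Sall4 stood out as lower at E11. Sall4 (chr2:168748332-168767943, minus strand) encodes a zinc finger factor of pluripotent and early embryonic cells. Per cell it ran from 0 over 0 to 41.8 CPM at E11 and from 0 over 16.1 to 142.9 CPM at E10. A read was found in 2 of 31 thinned E11 cells (6.45%, 0.791 to 21.4) and 27 of 36 E10 cells (75.0%, 57.8 to 87.9). The summed level was 1.63 CPM at E11 (1.37 to 1.93) and 32.9 CPM at E10 (31.6 to 34.2), a log2 ratio of -4.33.

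Trim71, a target of the miRNA let-7 that is repressed as embryonic cells mature, was also lower. It ran from 0 over 0.328 to 35.6 CPM per cell at E11 and from 0 over 16.5 to 71.3 CPM at E10, and its summed level was 5.72 CPM at E11 and 20.2 CPM at E10. Igf2bp3 and Lin28b, RNA-binding proteins of the fetal program, had 106.1 and 70.6 CPM at E11 and 173.8 and 100.5 CPM at E10, less than 2-fold apart. In the list as a whole, 15 of 29 genes were measured, 1 was at least 2-fold higher (Plag1) and 2 at least 2-fold lower, with a median log2 ratio of -0.32 and 11 members below 0. Plag1 lost its 2-fold ratio without the 8 cells outside cluster 8, with a log2 of 0.76 against 1.33 with them. Hmga1 and Hmga1b, near-identical copies whose reads may be shared, had 169.02 and 107.9 CPM at E11 and 213.4 and 136.3 CPM at E10.

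Imprinted genes divided. Of 33 listed, 18 were measured, 2 were at least 2-fold higher and 2 at least 2-fold lower, with a median log2 ratio of 0.24. When the 8 cells outside cluster 8 were left out, 1 was at least 2-fold higher, since H19 had a log2 ratio of 0.86 against 1.16 with them. H19, a maternally expressed noncoding RNA, had 712 CPM at E11 and 317.9 CPM at E10, and its neighbour Igf2, a paternally expressed growth factor, had 710 and 482 CPM. Slc38a4, a paternally expressed amino acid transporter, was among the 15 lowest ratios of all genes, with a log2 of -2.71. It ran from 0 over 0 to 92.4 CPM per cell at E11 and from 0 over 42.02 to 162.2 CPM at E10, and was read in 16.1% of thinned E11 cells (5.45 to 33.7) and 80.6% of E10 cells (63.98 to 91.8). Snrpn had 14.4 CPM at E11 and 32.9 CPM at E10.

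The 15 lowest ratios came from 87 genes that met the same rules, and beside Sall4 and Slc38a4 they held genes of several kinds. Rab44, a large RAB family GTPase gene of blood cells, was lowest with a log2 of -5.77, at 0.388 CPM at E11 and 21.2 CPM at E10. It was read in 12.9% of thinned E11 cells (3.63 to 29.8) and 47.2% of E10 cells (30.4 to 64.5). Syngr1, a vesicle membrane protein gene, was read in 35.5% of E11 cells (19.2 to 54.6) and 88.9% of E10 cells (73.9 to 96.9), with 4.91 CPM at E11 and 41.02 CPM at E10. Enah, an actin filament elongation factor, had 6.57 CPM at E11 and 37.4 CPM at E10, and Bend3, a chromatin repressor, had 7.505 and 32.4 CPM, with 16 of 36 E10 cells above the highest E11 cell. Satb1, a chromatin organiser that biases stem cells towards lymphoid fate, had 10.1 CPM at E11 and 38.97 CPM at E10.

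P2ry2, a receptor for extracellular nucleotides, had 9.01 CPM at E11 and 42.04 CPM at E10. Ptger3, a receptor for prostaglandin E2, had 7.85 CPM at E11 and 37.1 CPM at E10, and Rgs1, which dampens chemokine receptor signaling, had 3.66 and 24.7 CPM. Rgs1 and Rgcc rested on few cells, with 49.9% and 43.01% of their E10 reads in 1 cell each. Ubash3a, a negative regulator of T cell receptor signaling, had 11.7 CPM at E11 and 54.5 CPM at E10, and 91.5% of its E11 reads came from 1 cell. Serpina3f and Ttyh2 completed the set, with 8.13 and 3.90 CPM at E11 and 51.1 and 20.5 CPM at E10. Serpina3f belongs to a multigene family whose copies may share reads.

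Pan-hematopoietic genes had a median log2 ratio of 0.20, against 0.01 over all measured genes. Among 19 measured members (22 listed), 15 lay above 0, 1 was at least 2-fold higher and 1 at least 2-fold lower. Plek, which encodes pleckstrin, a protein kinase C substrate of platelets and leukocytes (chr11:16971206-17052381, minus strand), was the lower one. Per cell it ran from 0 over 39.002 to 348.1 CPM at E11 and from 0 over 314.4 to 886 CPM at E10, and 15 of 36 E10 cells exceeded the highest E11 cell. Its summed level was 88.4 CPM at E11 (86.4 to 90.4) and 332.3 CPM at E10 (328.2 to 336.5), a log2 ratio of -1.91. Ikzf1, the Ikaros gene of lymphoid and myeloid precursors, had 196.5 CPM at E11 and 330.5 CPM at E10. Ptprc, which encodes the leukocyte antigen CD45, lay the other way, with 141.4 CPM at E11 and 80.1 CPM at E10, and Coro1a, a leukocyte actin regulator, had 1584 and 1181 CPM.

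Myeloid genes went both ways. Of 30 listed, 17 were measured, 1 was at least 2-fold higher (Ms4a3) and 3 at least 2-fold lower (Fcer1g, Fcgr3 and Cebpb), with a median log2 ratio of 0.19. The log2 ratio of Cebpb, -1.72, was -0.30 against E10 cells of the upper library numbers, and that of Fcgr3, -1.07, was -0.83 without the 8 cells outside cluster 8. Fcer1g, the shared gamma chain of Fc receptors, ran from 0 over 29.3 to 190.95 CPM per cell at E11 and from 0 over 107.5 to 984 CPM at E10, with 43.7 CPM summed at E11 and 138.5 CPM at E10. Its partner Fcgr3 had 19.6 CPM at E11 and 41.2 CPM at E10, and Csf1r, the receptor of macrophage colony-stimulating factor, had 29.3 and 58.5 CPM. Granule genes differed in direction: Mpo had 330.9 CPM at E11 and 290 CPM at E10 and Lyz2 had 305.5 and 164.7 CPM, while Prtn3 had 102.6 and 128.6 CPM. The macrophage list, which could mark other cells in the gate, summed to 91.3 CPM at E11 and 99.5 CPM at E10.

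Among 26 lymphoid genes, 10 were measured, 1 was at least 2-fold higher (Lsp1) and 2 at least 2-fold lower (Satb1 among them), with a median log2 ratio of -0.18. Of 24 erythroid genes, 7 were measured and 3 were at least 2-fold higher, with a median of 0.03. Car2, a carbonic anhydrase of red cell precursors and other blood cells, ran from 51.3 over 357.9 to 1139 CPM per cell at E11 and from 0 over 117.8 to 777 CPM at E10, and 30 of 31 E11 cells lay above the E10 median. Aqp1 had 30.9 CPM at E11 and 13.6 CPM at E10, and Epor, the erythropoietin receptor, 10.6 and 4.10 CPM. The log2 ratio of Epor, 1.37 over all cells, was 0.61 without the 8 cells outside cluster 8, 0.67 without the highest cell and 0.18 with E11 cells of the upper library numbers, so its 2-fold ratio was lost. Hemoglobin genes were listed apart, with 2 of 11 measured, 1 at least 2-fold higher and 0 at least 2-fold lower. The higher one, Hbb-bt, had 46.3 CPM at E11 and 8.10 CPM at E10, a log2 ratio of 2.52. That of the other was -0.70. When the 8 cells outside cluster 8 were left out, 1 was at least 2-fold higher and 1 at least 2-fold lower. Of 22 megakaryocyte genes, 14 were measured, 4 were at least 2-fold higher (Gp1ba, Vwf and Gp9 among them) and 1 at least 2-fold lower (Clec1b), with a median of 0.14.

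Genes of the p53 response and of cell death were lower at E11 more often than higher. Of 20 p53 targets, 13 were measured, 1 was at least 2-fold higher and 3 at least 2-fold lower, with 10 members below 0 and a median log2 ratio of -0.55. Perp, a membrane protein induced by p53 (chr10:18845020-18857073, plus strand), ran from 0 over 0 to 40.2 CPM per cell at E11 and from 0 over 11.9 to 444.4 CPM at E10. It had 6.06 CPM at E11 (5.55 to 6.61) and 66.2 CPM at E10 (64.4 to 68.1), and was read in 12.9% of thinned E11 cells (3.63 to 29.8) and 55.6% of E10 cells (38.1 to 72.1). Cdkn1a, which encodes the cell cycle inhibitor p21, had 15.5 CPM at E11 and 34.5 CPM at E10, and its log2 ratio of -1.15 was -0.52 against E10 cells of the upper library numbers. Trp53inp1, a p53-induced stress protein gene, lay the other way with 11.9 and 1.26 CPM. Trp53 itself, the gene of p53, had 478 CPM at E11 and 485 CPM at E10.

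In the BCL2 family, 9 of 18 genes were measured, and 8 of them were below 0, 2 at least 2-fold, with a median log2 ratio of -0.36. The lower members included genes that promote cell death and genes that restrain it. Bcl2l11 and Pmaip1, which encode the killers BIM and NOXA, had 3.41 and 12.6 CPM at E11 and 18.4 and 29.2 CPM at E10, and Bcl2l1 and Mcl1, which protect cells, had 188.7 and 104.8 CPM at E11 and 244.9 and 134.3 CPM at E10. The log2 ratio of Bcl2l11, -2.43 over all cells, was -1.49 without the highest cell and -0.88 against E10 cells of the upper library numbers. Bcl2, the founding protective gene, was the 1 member at least 2-fold higher, with 26.6 CPM at E11 and 11.4 CPM at E10, and its log2 ratio of 1.22 was 0.54 against E10 cells of the upper library numbers. The summed level of the list was above the highest E11 cell (923 CPM) in 11 of 36 E10 cells.

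Chaperone, glycolysis and respiration genes were lower at E11 by small ratios in most members. Of 10 measured heat shock genes (12 listed), 9 had a log2 ratio below 0 and 0 were 2-fold apart in either direction, with a median of -0.38. Hspa8, the constitutive HSP70, ran from 321.05 over 590 to 1001 CPM per cell at E11 and from 447.03 over 848 to 1717 CPM at E10, with 28 of 36 E10 cells above the E11 median. Of 25 measured genes of glycolysis and hypoxia (30 listed), 19 were below 0, 1 at least 2-fold, with a median of -0.22. The member 2-fold lower was Slc16a3, a lactate exporter induced by hypoxia, with 13.2 CPM at E11 and 37.0 CPM at E10. Eno1, a glycolytic enzyme with several processed copies in the genome, ran from 70.5 over 223.3 to 866 CPM per cell at E11 and from 136.9 over 397.1 to 785 CPM at E10, and 34 of 36 E10 cells lay above the E11 median. Ldha, which makes lactate, had 1356 CPM at E11 and 1942 CPM at E10. Of 29 measured nuclear genes of the respiratory chain (30 listed), 25 were below 0 and 0 were 2-fold apart, with a median of -0.18. Housekeeping genes had a median of -0.12 with 11 of 14 below 0.

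Cell cycle genes differed little between the days. All 45 genes of S phase and all 52 of G2 and M phase were measured, and 0 of either list was 2-fold apart in either direction, with medians of 0.07 and 0.02. The summed level of the S phase list ran per cell from 3865 over a median of 9300 to 16740 CPM at E11, and from 4855 over 8013 to 17896 CPM at E10. Among 18 cyclins and inhibitors, 14 were measured, 2 were at least 2-fold higher and 1 at least 2-fold lower. Cdkn1b, which encodes the inhibitor p27, had 13.2 CPM at E11 and 2.63 CPM at E10, and was read in 61.3% of thinned E11 cells (42.2 to 78.2) and 27.8% of E10 cells (14.2 to 45.2). Its log2 ratio of 2.32 was 0.37 with E11 cells of the lower library numbers and 2.80 with those of the upper ones. Chromatin regulators had 0 of 19 measured members 2-fold apart and a median of 0.05.

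Immediate-early genes, which respond within minutes to dissociation and sorting as well as to signals in the embryo, had a median log2 ratio of -0.06 over 17 measured members of 23, with 2 at least 2-fold higher and 2 at least 2-fold lower. Without the 8 cells outside cluster 8 the median was -0.46, with 1 at least 2-fold higher and 4 at least 2-fold lower. Jun had 303.8 CPM at E11 and 661 CPM at E10, but its per-cell medians were 185.03 CPM at E11 and 169.01 CPM at E10, and 45.1% of its E10 reads came from 1 cell. Its log2 ratio of -1.12 was -0.31 without the highest cell. Cytokine receptors had 3 of 27 measured members (33 listed) at least 2-fold higher and 1 at least 2-fold lower, with a median of 0.25. The lower one was Lifr, a partner of gp130, at 0.857 CPM at E11 and 10.8 CPM at E10. Adhesion and homing genes had 4 of 19 measured members (26 listed) at least 2-fold higher and 1 lower, with a median of 0.16. Icam1, a ligand of leukocyte integrins, had 102.9 CPM at E11 and 38.9 CPM at E10. Cholesterol synthesis genes had 2 of 23 measured members at least 2-fold higher and 0 lower, with a median of 0.16.

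Without the 8 cells outside cluster 8, the number of members at least 2-fold apart also differed in other lists. For HSC surface genes it was 5 higher and 1 lower, for interferon genes 7 higher and 1 lower, and for switch factors 3 higher and 0 lower. For pan-hematopoietic genes it was 0 higher and 1 lower, for myeloid genes 2 and 2, for erythroid genes 2 and 0, and for p53 targets 1 and 4. Adhesion and homing genes had 3 higher and 2 lower, and cholesterol synthesis genes 1 and 1.

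**Figure D3:**
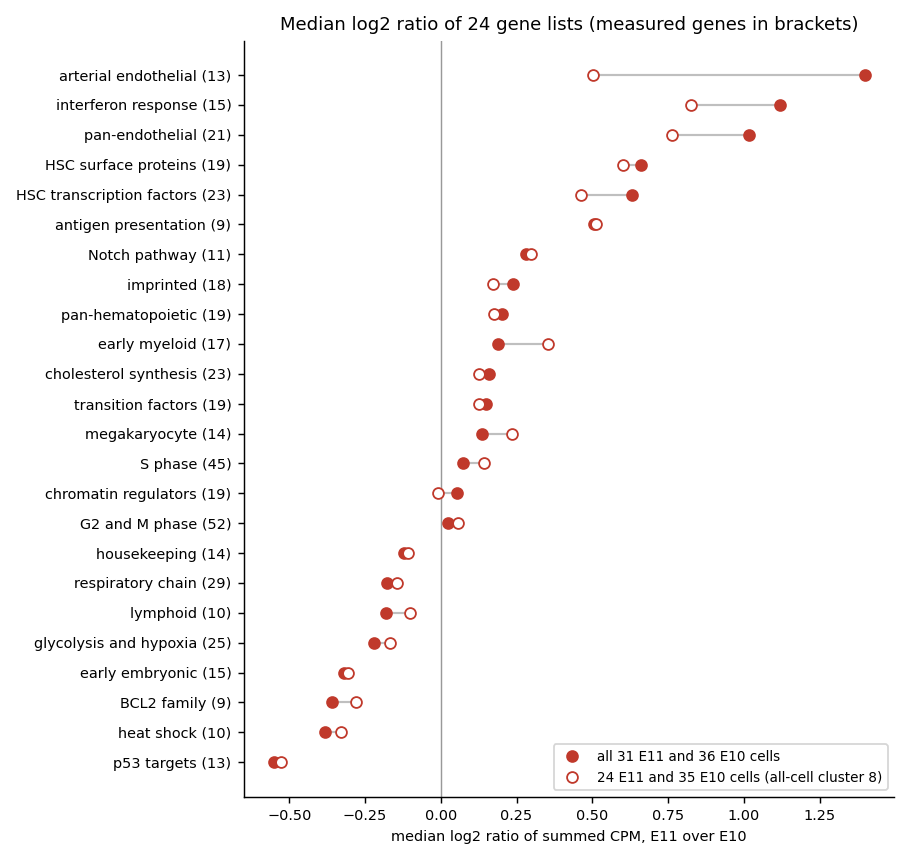
Median log2 ratio of E11 over E10 for 24 gene lists, with the number of measured genes in brackets. Filled circles use all 31 E11 and 36 E10 cells, and open circles the 24 E11 and 35 E10 cells that are also in cluster 8 of the clustering of all cells. The arterial list moves most, with 1.40 over all cells and 0.50 over the smaller set, and p53 targets have the lowest median of those drawn (-0.55 and -0.53).

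The 39 cells of class HC1 and cluster 8 from E11.5 in the same gate give a later day, with library numbers apart from those of E10 and E11. In the clustering of all cells, 28 of these 39 were in cluster 8, 8 in cluster 7 and 3 in cluster 4, so the makeup of the class differed between the days, and its part in the levels below was not tested. The levels of E10, E11 and E11.5 are given side by side, since comparisons of the later days with E10 would share its cells. Mecom had 50.9, 186.4 and 107.4 CPM on the 3 days in that order, and Mllt3 had 24.96, 90.9 and 59.1 CPM. Both were highest at E11 in these libraries. Procr, with 30.9, 250 and 133.9 CPM, had the same shape, and so did Gja5 with 4.99, 41.3 and 8.17 CPM. Psmb8 had 3.35, 19.7 and 24.1 CPM, Cd27 had 55.9, 122.6 and 160 CPM and Ly6a had 1.22, 13.3 and 24.6 CPM, each highest at E11.5. Among genes lower at E11, Sall4 had 32.9, 1.63 and 1.80 CPM, Trim71 had 20.2, 5.72 and 4.96 CPM and Rab44 had 21.2, 0.388 and 0.0607 CPM. These 3 were also low at E11.5, whereas Fcer1g, with 138.5, 43.7 and 84.3 CPM, and Slc38a4, with 44.6, 6.80 and 15.1 CPM, lay between. The 15 genes with the highest ratios ran from 0.339 to 30.9 CPM at E10, from 20.3 to 250 CPM at E11 and from 6.93 to 133.9 CPM at E11.5. These 15, and Mecom and Mllt3, were named for their E11 over E10 ratios, so their higher level at E11 was set by the choice. Whether levels fell after E11 was not tested.

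**Figure D4:**
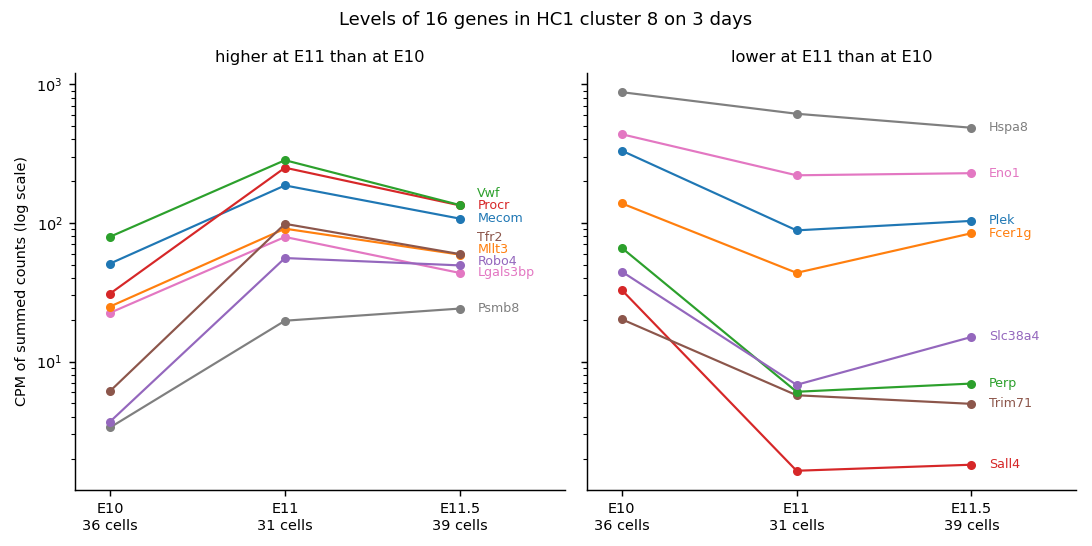
Summed CPM on a log axis at E10 (36 cells), E11 (31 cells) and E11.5 (39 cells) for 16 genes, each line 1 gene and each day 1 sample with no replicate. Genes higher at E11 than at E10 are on the left and genes lower at E11 on the right. Sall4 has 32.9, 1.63 and 1.80 CPM and Psmb8 3.35, 19.7 and 24.1 CPM in order of day.

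Cluster 7 is the other HC1 cluster and was sampled on the same days, with 46 cells at E11 and 27 at E10. In the clustering of all cells, 38 of the 46 E11 cells were in cluster 7 and 6 in cluster 8, against 11 and 16 of the 27 E10 cells, so that different clusters held most of it on each day. It holds more endothelial RNA, with 7070 CPM of pan-endothelial markers at E11 and 4752 CPM at E10. There, of 10134 measured genes, 827 were at least 2-fold higher at E11 (8.16%) and 2.62% at least 2-fold lower, with a median log2 ratio of 0.02 over all genes. Since both clusters came from the same library blocks, their ratios are set side by side and no likeness between them is tested. The median of HSC factors was 0.63 in cluster 8 and 0.53 in cluster 7, that of pan-endothelial genes 1.02 and 0.81, of arterial genes 1.40 and 1.40, of interferon genes 1.12 and 1.27, and of early embryonic genes -0.32 and -0.54. Heat shock genes had medians of -0.38 and -0.77, and p53 targets -0.55 and -0.51. The S phase list, by contrast, had 0.07 in cluster 8 and -0.35 in cluster 7, and G2 and M phase 0.02 and 0.34.

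Of single genes, Sall4 had log2 ratios of -4.33 in cluster 8 and -2.98 in cluster 7, with 4.75 CPM at E11 and 37.4 CPM at E10 in cluster 7. Mllt3 had 1.87 and 1.80, Tfr2 had 4.01 and 2.37, and Robo4 had 3.92 and 3.09. Prex2 had 4.41 in cluster 8 and 0.06 in cluster 7, where it had 25.6 CPM at E11 and 24.6 CPM at E10. Fblim1 had 5.90 and 0.57, Egr1 had 1.61 and -0.79, and Satb1 had -1.94 and 0.76. Whether such ratios differ between the clusters was not tested.

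**Figure D5:**
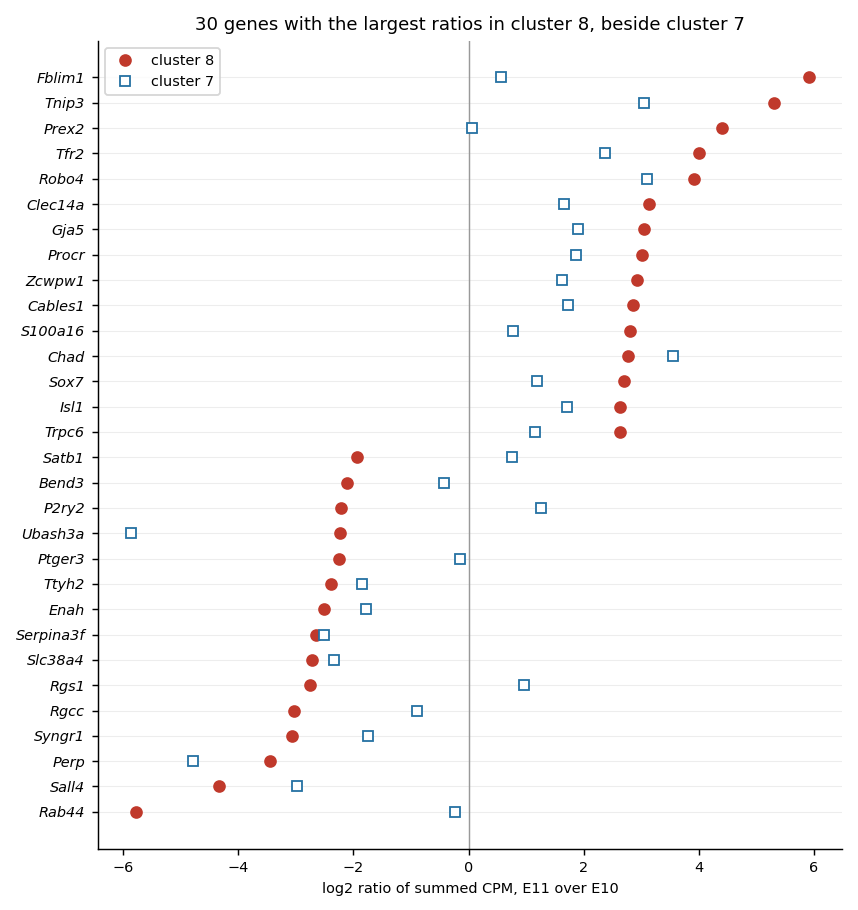
Log2 ratio of summed CPM, E11 over E10, for the 15 highest and 15 lowest genes of cluster 8 (filled circles), beside the ratio of the same genes in cluster 7 (open squares). The genes were chosen on their ratio in cluster 8, so their size there was set by the choice. Fblim1 has 5.90 in cluster 8 and 0.57 in cluster 7, and P2ry2 has -2.22 and 1.26.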

How the data were processed

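Single-cell RNA was sequenced from Nextera XT libraries on an Illumina HiSeq, per the labels' protocols. The authors deposited raw counts per gene and cell, made with HTSeq 0.6.0 on GRCm38 per the submitters' processing notes. The aligner, annotation release and strand setting are not given in the sources used here, so overlapping and antisense genes cannot be told apart. No molecular identifiers are mentioned, so PCR copies are counted. The Poisson intervals take reads as independent, and may be too narrow for the counting of RNA molecules. Of 1087 cell columns 256 were used and 831 were not. Of 46078 genes, 45229 were matched to symbols of an annotation of the same build, and unmatched genes held 0.0989% of reads.

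Counts were summed over the cells of a day and divided by the summed total to give CPM, with exact 95% Poisson intervals. Shares of cells with a read were taken after thinning each cell to 500000 reads (seed 11), with exact Clopper-Pearson intervals. A gene was measured at 10 CPM or more on 1 day and a read in 10% of thinned cells. With 1 sample per day no test was made, and 2-fold ratios are descriptive. Named genes were those of the sort, 2 to 4 members per list with the largest ratios, and the 15 highest and 15 lowest ratios at 20 CPM or more that kept 1.5-fold in the same direction in each part of the library numbers, by mean per-cell CPM, without the highest cell and without cells outside cluster 8 of the clustering of all cells. Other genes named were chosen after their values were seen. Members and lists were chosen with earlier results of these data known. The class was checked on other E10 and E11 cells of the gate, rather than on all cells without CD27 as planned. Each cell was its own library and no doublet caller was run, so libraries that held more than 1 cell were not identified. The computation used Python 3.11.15, numpy 2.4.6, pandas 2.3.3 and scipy 1.17.1, and TMM scaling used edgeR 4.0.16 in R 4.3.3. The scripts were tested on simulated data.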

Additional observations from a re-analysis of the deposited data

Results flagged for a closer look

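P2ry2, the nucleotide receptor gene, was lower at E11 in cluster 8 (log2 ratio -2.22) and higher at E11 in cluster 7 (1.26). For Bcl2 the directions were the other way round, at 1.22 for cluster 8 and -1.54 for cluster 7. Both genes are given here because their ratios had opposite signs, and the difference between the clusters was not tested.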

How the results depend on the processing

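Of 1510 values recomputed for named genes, 1330 moved by less than 1.5-fold. Part of this was set in advance. TMM scaling and totals without mitochondrial genes shift all genes alike, by too little to move any by 1.5-fold. The 15 highest and 15 lowest genes had been chosen for keeping 1.5-fold in the same direction under several of these settings. Under those settings their values could not change sign. Some genes with small ratios, such as Kit, changed sign in some settings. Sign changes were counted only for the 96 genes at least 2-fold apart over all cells, where 2 of 960 values changed sign. Those were Dll4, with a log2 ratio of -0.11 without cells outside cluster 8 of the clustering of all cells, and Id1, with 0.0115 against E10 cells of the upper library numbers. Of the medians of 32 lists, 7 values moved by more than 1.5-fold, among them those of the arterial list, at 0.50 without cells outside cluster 8 and of the interferon list, at 0.18 with a floor of 50 CPM. Genes at least 2-fold higher were 6.04% of those measured, against 18.36% (3890 of 21182) with no floor and 2.291% with a floor of 50 CPM. Genes at least 2-fold lower were 2.13%, against 13.42% (2843) with no floor, 0.4545% (24) with a floor of 50 CPM, 4.001% with E11 cells of the lower library numbers and 3.578% with those of the upper ones. The cause was not tested, except that a floor changes how many genes are counted. TMM scaling shifted all log2 ratios by -0.03. No paired analysis was possible because the labels name no embryo and each day is 1 sample. Library block, sex mix and day cannot be told apart, and depth limits genes of a few CPM.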
